A study of Homo sapiens with 6 samples.

Results

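The plasminogen activation genes PLAU, PLAUR, PLAT and SERPINE2 were taken by symbol from the deposited gene count table, in which all 4 were found among 26334 genes and all 4 were among the 16117 genes with enough reads to be tested. RNA-seq was performed on poly-A RNA of MCF10DCIS.com, a human basal-like breast cancer line of the MCF10 series that forms lesions resembling ductal carcinoma in situ when grafted into mice. The control group, shLuc, holds 3 libraries of cells infected with a vector whose U6 promoter drives a hairpin against luciferase, and the shWDR5 group holds 3 libraries of cells infected with the same backbone carrying WDR5 hairpins. Both groups carried TagRFP and a puromycin resistance gene and were selected with 3 µg/ml puromycin, in DMEM/F12 medium with 5% horse serum. Elsewhere in the study the WDR5 hairpins were used as a pool, all libraries come from a single cell line, and the labels do not say whether the replicates were separate infections, so that p-values measure the spread between these libraries.

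Plasminogen is a circulating zymogen that is cut to plasmin, a broad serine protease that dissolves fibrin and degrades matrix proteins around invading cells. Cells cut it with a pair of activators, urokinase (uPA, encoded by PLAU), which works on the cell surface bound to its receptor uPAR (PLAUR), and tissue-type activator (tPA, encoded by PLAT), which works best on fibrin. Both are blocked by serpins, among them PAI-2 (SERPINB2) and protease nexin-1 (SERPINE2), which also blocks thrombin and is cleared with its protease by receptors of the LDL receptor family. In breast carcinoma uPA is a long-known marker of invasive disease.

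The libraries held between 38218108 and 57640167 counts, and the share of counts taken by the 10 most abundant genes was 5.74% to 6.09% in shLuc and 7.67% to 8.16% in shWDR5. WDR5, the silenced gene, had 52.5, 48.5 and 51.3 CPM (counts per 1000000 library counts, scaled by TMM factors) in shLuc replicates 1 to 3 and 23.4, 24.3 and 20.7 in shWDR5 replicates 1 to 3. All shWDR5 libraries were below all shLuc libraries, and WDR5 mRNA was 2.22-fold lower (log2 fold change -1.15 ± 0.07, SE, n = 3 per group; edgeR quasi-likelihood test, adjusted p = 8.67e-07). All 8 markers of breast epithelium looked at (KRT5, KRT14, KRT17, TP63, CDH1, EPCAM, KRT8 and KRT18) had a mean above 0.5 RPKM (CPM divided by the exonic length in kilobases), with summed levels of 3717 to 3992 RPKM in shLuc and 5040 to 5672 RPKM in shWDR5. The members did not move together: KRT5, KRT14 and KRT17 were 1.89-fold, 2.44-fold and 1.91-fold higher in shWDR5, whereas CDH1 (E-cadherin) was 2.05-fold lower (edgeR, adjusted p = 2.64e-07) and EPCAM 1.26-fold lower (edgeR, adjusted p = 0.00317). TP63 was 1.34-fold higher (edgeR, adjusted p = 0.0017), while KRT8 and KRT18 overlapped between groups and did not pass (edgeR, adjusted p = 0.607 and 0.11). Most markers of other cell types were at or near 0: 6 of 7 fibroblast markers, 5 of 6 endothelial markers and 4 of 6 leukocyte markers had a mean RPKM at or under 0.5, and LUM and CD3E had no read in any library, while COL1A1, PECAM1, CD68 and CD14 were above that level. Summed marker levels were 3.72 to 4.04 RPKM in shLuc against 2.54 to 3.04 RPKM in shWDR5 for fibroblasts, 1.76 to 1.88 against 1.18 to 1.32 RPKM for endothelium and 6.64 to 7.90 against 6.39 to 7.66 RPKM for leukocytes. Most of the leukocyte sum was CD68, which overlapped between groups, while CD14 was 2.07-fold lower and ITGAM 3.93-fold higher in shWDR5 (edgeR, adjusted p = 0.000342 and 0.000177), both with a mean under 1 RPKM in each group. The part of these differences in the results below was not tested.

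WDR5 silencing was accompanied by a large rise of SERPINE2, a small rise of PLAU, a small fall of PLAUR and no detected change of PLAT. With a gene counted as changed at an adjusted p under 0.05 (edgeR quasi-likelihood test, Benjamini-Hochberg over all genes tested), 3 of the 4 genes passed, 2 higher and 1 lower in shWDR5. The same threshold was passed by 56.5% of all genes tested (26.6% were higher and 29.9% lower), so passing it was common in this comparison. With the size rule the study used for its RNA-seq (also an absolute log2 fold change of at least 0.6 and more than 0.5 RPKM, here as the mean of at least 1 group), 1 of the 4 passed, SERPINE2, against 18.4% of all genes. In bulk libraries such as these, a change in the RNA of each cell and a change in the share of cells that express the gene cannot be told apart.

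**Figure D1:**
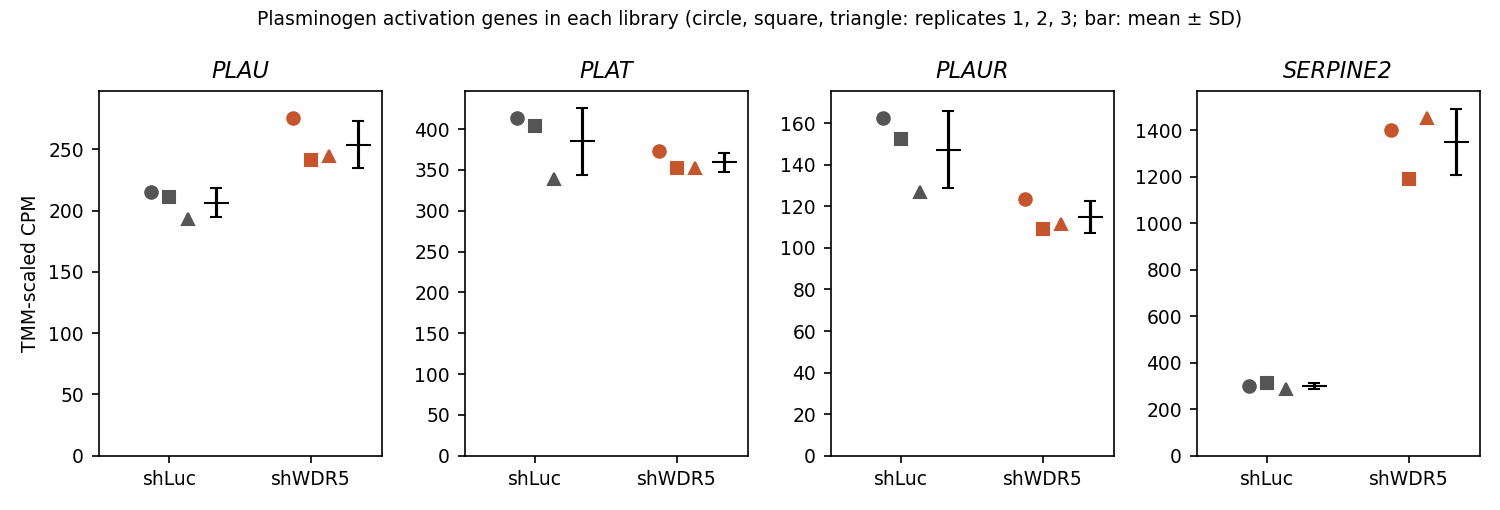
TMM-scaled CPM of PLAU, PLAT, PLAUR and SERPINE2 in each library, with each y axis starting at 0; symbols mark replicates 1, 2 and 3, and bars give the mean ± SD of 3 libraries. SERPINE2 was between 288 and 313 CPM in shLuc and between 1189 and 1454 CPM in shWDR5, while the groups overlapped for PLAT.

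SERPINE2 lies on chromosome 2 on the minus strand (hg19, chr2:224839765-224904036), with 12 merged exonic blocks and 3049 exonic bases in the count table. The RefSeq promoter table (GRCh38.p14) gives it an outer and an inner start site, and the inner one lies within the span of longer SERPINE2 transcripts, preceded by sequence that no GENCODE v29 exon covers. SERPINE2 was chosen for display as the gene of the set that changed most. The sequence before its inner start is shown because that before the outer start holds 164 bases of untranslated exon sequence. The counts are per gene, so which start the reads came from was not tested. It spans chr2:224031479-224031728 on the minus strand (GRCh38.p14), is written 5′ to 3′ and ends at the base before the start, with capitals marking an E-box and a GC box.
SERPINE2 inner promoter: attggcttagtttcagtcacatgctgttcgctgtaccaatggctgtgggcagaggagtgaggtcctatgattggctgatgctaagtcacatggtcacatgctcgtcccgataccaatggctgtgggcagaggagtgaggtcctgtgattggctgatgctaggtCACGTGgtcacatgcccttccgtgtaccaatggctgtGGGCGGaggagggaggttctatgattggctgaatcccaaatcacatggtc
A run of 17 bases, taccaatggctgtgggc, occurs 3 times in it at a regular spacing of 77 bases, beginning at positions -217, -140 and -63 from the start. No other promoter of the 35116 in the table holds that run in its sequence as written, and the opposite strand was not searched. The run was chosen after the sequence was seen.

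SERPINE2 had 300 CPM, 313 CPM and 288 CPM in shLuc replicates 1, 2 and 3. In shWDR5 replicates 1, 2 and 3 it had 1402 CPM, 1189 CPM and 1454 CPM. All shWDR5 libraries were far above all shLuc libraries, as was the case in that direction, at any distance, for 29.9% of the genes tested. The means were 300 ± 12.2 CPM in shLuc and 1348 ± 140 CPM in shWDR5 (SD, n = 3 per group), a 4.49-fold rise (95% interval 3.98 to 5.06). On the log2 scale the rise was 2.17 ± 0.08 (SE; edgeR, adjusted p = 4.47e-08), which ranked 155th from the top among 16117 genes tested. Its log2 fold change lay between 2.11 and 2.25 when each library was left out in turn.

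PLAU encodes urokinase, the activator that acts on the cell surface, and lies on chromosome 10 on the plus strand (hg19, chr10:75670862-75677258). It had 215 CPM, 211 CPM and 193 CPM in shLuc replicates 1, 2 and 3, and 276 CPM, 241 CPM and 245 CPM in shWDR5 replicates 1, 2 and 3. The lowest shWDR5 library was above the highest shLuc library, as for 29.9% of the genes tested. The means were 206 ± 11.7 CPM and 254 ± 19.2 CPM (SD, n = 3 per group), and PLAU rose 1.23-fold (95% interval 1.11 to 1.36; log2 fold change 0.30 ± 0.07, SE; edgeR, adjusted p = 0.00343). Its absolute log2 fold change was larger than that of 48.7% of the genes tested, close to the median of 0.31. PLAU shares 770 of its 2690 exonic bases (28.6%) with C10orf55, a gene on the opposite strand. The kit does not record strand, so that reads from that stretch cannot be assigned to either gene, and C10orf55 had 88 to 118 counts in shLuc and 143 to 165 counts in shWDR5, against 7801 to 10646 and 11104 to 13697 counts for PLAU.

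PLAT encodes the tissue-type activator, known best for fibrin clearance by endothelium, and lies on chromosome 8 on the minus strand (hg19, chr8:42032236-42065194). PLAT had 414 CPM, 404 CPM and 338 CPM in shLuc replicates 1, 2 and 3, and 373 CPM, 352 CPM and 353 CPM in shWDR5 replicates 1, 2 and 3. The shLuc group spanned the whole shWDR5 group, since its replicate 3 was the lowest of the 6 libraries and its replicates 1 and 2 were the highest. The means were 385 ± 41.1 CPM and 359 ± 11.8 CPM (SD, n = 3 per group), a ratio of shWDR5 to shLuc of 0.932 (95% interval 0.830 to 1.05; log2 fold change -0.10 ± 0.07, SE; edgeR, adjusted p = 0.275). Without shLuc replicate 3 the PLAT difference passed the test, with a log2 fold change of -0.19 and an adjusted p of 0.0157, while leaving out any other library gave an adjusted p of 0.222 to 0.744.

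PLAUR encodes the urokinase receptor, a protein held to the outer membrane by a lipid anchor, and lies on chromosome 19 on the minus strand (hg19, chr19:44150247-44174498). It had 163 CPM, 152 CPM and 127 CPM in shLuc replicates 1, 2 and 3, and 124 CPM, 109 CPM and 111 CPM in shWDR5 replicates 1, 2 and 3. All shWDR5 libraries were below all shLuc libraries, as for 32.4% of the genes tested, although shLuc replicate 3 and shWDR5 replicate 1 were close together. The means were 147 ± 18.5 CPM and 115 ± 7.77 CPM (SD, n = 3 per group), and PLAUR was 1.28-fold lower in shWDR5 (log2 fold change -0.36 ± 0.09, SE; edgeR, adjusted p = 0.00575). Its log2 fold change ranged from -0.46 without shLuc replicate 3 to -0.27 without shLuc replicate 1, and the call was kept in both. PLAU, PLAT, PLAUR and SERPINE2 all had their lowest shLuc level in replicate 3.

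The promoter table held windows of 300 bases (250 before and 50 after a start) for 3 of the 4 genes. Letters of 4 motifs were searched on both strands: AP-1 (TGANTCA), the E-box (CACGTG), the GC box (GGGCGG) and the TATA box (TATAAA). The PLAUR window held 1 AP-1 match, and 7.71% of the 35116 promoters hold at least 1. The inner PLAU window held 3 GC boxes, where 45.0% of promoters hold at least 1, and the share with 3 was not counted. The 250 bases before the PLAUR start all lie in GENCODE v29 exons of PLAUR. Those before the inner PLAU start all lie in untranslated exon sequence of PLAU or C10orf55. These matches thus fall in annotated exons. The E-box before the inner SERPINE2 start is found in 7.26% of promoters, the GC box occurs in both SERPINE2 windows, and TATAAA, found in 11.5% of promoters, was in none of the windows. The PLAUR and PLAU matches are shown with their flanks because these genes moved in opposite directions, with the motif in capitals, from chr19:43670339-43670365 on the minus strand and chr10:73911076-73911102 on the plus strand (GRCh38.p14).
PLAUR AP-1 match: cacaactccaTGAGTCAgggccgagcc
PLAU GC boxes: gggagGGGCGGcgccgGGGCGGgccct
Such matches describe the letters and do not show that a factor binds there.

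Per length of transcript, PLAT was the most abundant of the 4 genes in shLuc, at 121 ± 12.9 RPKM (SD, n = 3), followed by SERPINE2 at 98.5 ± 3.99 RPKM, PLAU at 76.8 ± 4.34 RPKM and PLAUR at 73.3 ± 9.22 RPKM. PLAU and PLAUR overlapped between libraries and did not differ beyond their spread, whereas the lowest PLAT library (107 RPKM) was just above the highest SERPINE2 library (103 RPKM). In shWDR5 the order was SERPINE2 at 442 ± 46.0 RPKM, PLAT at 113 ± 3.70 RPKM, PLAU at 94.4 ± 7.13 RPKM and PLAUR at 57.1 ± 3.87 RPKM, with no overlap between neighbours. The PLAU values divide by all 2690 exonic bases, of which 770 are shared with C10orf55. If reads from that stretch were left out of the counts, the PLAU RPKM is too low. The place of PLAU in either order is therefore uncertain. All 4 genes were abundant, with a mean RPKM over the 6 libraries above that of 94.0% (PLAUR) to 98.8% (SERPINE2) of the genes tested.

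Ratios of counts within a library do not depend on how libraries are scaled against each other. The PLAT to PLAU count ratio was 1.92, 1.91 and 1.75 in the shLuc libraries and 1.35, 1.46 and 1.44 in the shWDR5 libraries. The PLAU to PLAUR count ratio was 1.32, 1.38 and 1.52 in shLuc and 2.23, 2.20 and 2.20 in shWDR5. The SERPINE2 to PLAU count ratio was 1.39, 1.48 and 1.49 in shLuc and 5.08, 4.94 and 5.94 in shWDR5. The groups did not overlap for any of these ratios, which were 1.31-fold lower, 1.57-fold higher and 3.64-fold higher in shWDR5, respectively. Among single genes tested, 29.9% had all shWDR5 libraries above all shLuc libraries and 32.4% had all below. PLAU, PLAUR and SERPINE2 had each passed the test above, so these ratios are not separate evidence. For each ratio the two-sided exact permutation test gave p = 0.1 (n = 3 per group), the smallest value it can give without pairs. With same-numbered replicates as pairs, the exact test gave p = 0.25 for each ratio.

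SERPINE2 was also set against the activators per length, in RPKM. SERPINE2 had 98.5, 103 and 94.6 RPKM in the shLuc libraries and 460, 390 and 477 RPKM in the shWDR5 libraries. PLAU and PLAT together summed to 211, 206 and 178 RPKM in shLuc and to 220, 200 and 202 RPKM in shWDR5, so the groups overlapped for the activators. These sums carry the limit of the exonic bases that PLAU shares with C10orf55. The ratio of SERPINE2 to the activator sum was 0.468 to 0.530 in shLuc and 1.95 to 2.36 in shWDR5, so that SERPINE2 was below the activators in every shLuc library and above them in every shWDR5 library. These levels describe mRNA, not the amount or activity of the proteins.

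**Figure D2:**
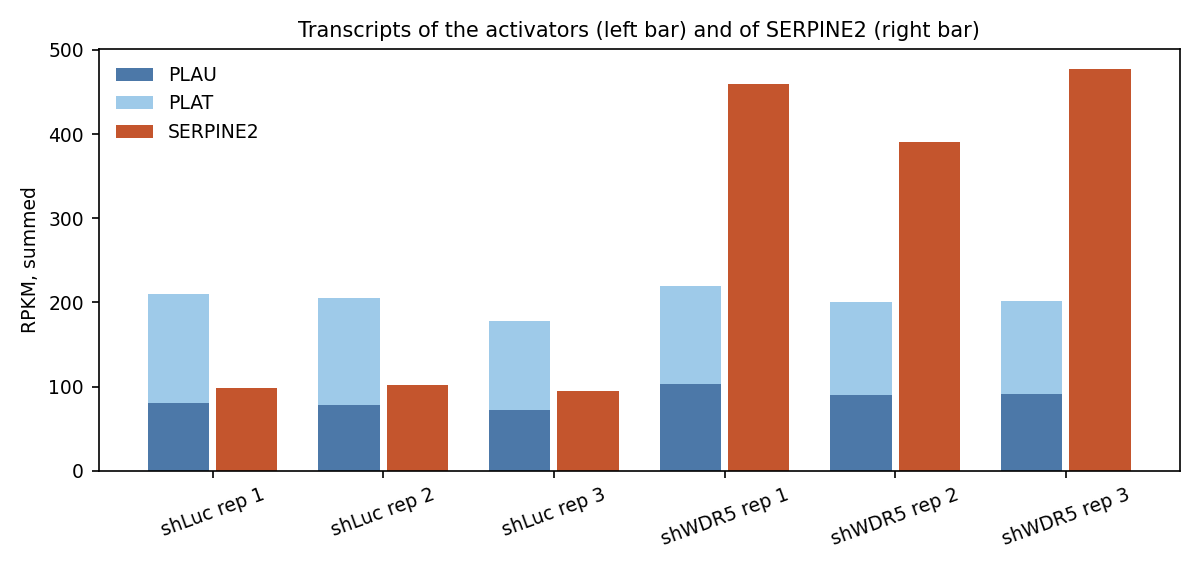
RPKM of PLAU and PLAT (left, stacked) and of SERPINE2 (right) in each of the 6 libraries. The left bars lie between 178 and 220 RPKM in both groups, and the right bars rise from at most 103 RPKM in shLuc to at least 390 RPKM in shWDR5.

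Beyond these 4 genes, 57 genes of the system were listed by role, of which 45 had enough reads to be tested and 12 did not (PLG, CPB2, LRP2, VTN, FPR1, FPR2, FPR3, HPN, KLKB1, HGF, MMP3 and F2). Of the 45, 20 were higher and 18 lower in shWDR5 at an adjusted p under 0.05, and 7 did not pass. Thus 84.4% passed, where 56.5% of all genes tested did (26.6% higher and 29.9% lower, shares that also apply to the counts by role below). The list was chosen with earlier results of these data known, so the difference in share is a description, not a test. With the size rule 11 were higher and 5 lower, where 7.9% of all genes tested were higher and 10.5% lower. Their median log2 fold change was 0.10, against -0.01 over all genes tested.

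Plasminogen itself (PLG) had 0 to 3 reads per library. Of its receptors and binding partners at the cell surface, 3 of 4 tested were higher in shWDR5 and none was lower. S100A10, the light chain that binds plasminogen through its terminal lysine, rose 1.57-fold, from 569 ± 39.6 to 892 ± 60.5 RPKM (adjusted p = 2.27e-05). ANXA2, its annexin partner, rose 1.28-fold (adjusted p = 0.000427) and PLGRKT, a membrane plasminogen receptor, rose 1.21-fold (adjusted p = 0.00571). ENO1, a glycolytic enzyme that also binds plasminogen at the surface, overlapped between groups at 982 ± 54.3 and 1006 ± 55 RPKM (adjusted p = 0.656).

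Of the 5 other inhibitors tested, 3 were higher and 2 lower. SERPINB2 (PAI-2) rose 1.47-fold to 8.57 ± 0.452 RPKM and SERPINI1 (neuroserpin, an inhibitor of tPA) rose 1.74-fold to 3.84 ± 0.142 RPKM (adjusted p = 0.000264 and 4.66e-05). A2M, a broad protease trap, rose 4.38-fold but only from 0.364 ± 0.018 to 1.60 ± 0.0954 RPKM (adjusted p = 1.82e-07). SERPINA5, the protein C inhibitor that also blocks urokinase, was 1.69-fold lower (adjusted p = 6.43e-06), and SERPINF2, the plasmin inhibitor, was 2.08-fold lower at 1.63 ± 0.363 RPKM (adjusted p = 0.000301).

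Of the genes listed as clearance receptors and their helpers, 4 of 6 tested were higher and 1 lower, but only some of them take up complexes of protease and serpin. Among those that do, VLDLR rose 1.84-fold to 11.1 ± 0.533 RPKM (adjusted p = 2.54e-06) and LRP1 rose 1.59-fold to 6.23 ± 0.394 RPKM (adjusted p = 7.57e-06). IGF2R, which binds uPAR and plasminogen besides its growth factor, rose 1.19-fold (adjusted p = 0.00165), and SORL1, which also takes up uPA complexes, was 1.38-fold lower (adjusted p = 4.21e-05). MRC2, a collagen receptor that associates with uPAR, had 24.1 ± 2.30 and 22.8 ± 0.949 RPKM and did not pass (adjusted p = 0.375), but without shLuc replicate 3 it did, with a log2 fold change of -0.16 (adjusted p = 0.0395).

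The proteins that uPAR acts with in the membrane split in direction, with 4 of 7 tested higher and 3 lower. The integrin subunits ITGAV and ITGA5 rose 1.54-fold and 1.53-fold (adjusted p = 0.000204 and 5.65e-05), and ITGB1, the shared beta chain, rose 1.27-fold to 397 ± 32.2 RPKM (adjusted p = 0.00244). ITGB3, the vitronectin receptor beta chain, was 1.36-fold lower at 9.41 ± 0.620 RPKM (adjusted p = 0.000496). ITGA3 was 1.12-fold higher (adjusted p = 0.0429), a call that was lost without shLuc replicate 2 or 3 and without any single one of shWDR5 replicates 1, 2 and 3, with adjusted p of 0.0618 to 0.134.

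Pro-urokinase is itself activated by other proteases. Of these and their inhibitors, 2 of 6 tested were higher and 4 lower. CTSB, a lysosomal cathepsin that can activate pro-urokinase, rose 1.54-fold to 80.5 ± 6.45 RPKM (adjusted p = 2.02e-05), whereas CTSL was 1.32-fold lower and F12 (coagulation factor XII) 1.27-fold lower (adjusted p = 0.000462 and 0.00427). SPINT1, a Kunitz inhibitor of matriptase, rose 1.21-fold (adjusted p = 0.00252). Its relative SPINT2 was 1.13-fold lower (adjusted p = 0.0323), a call lost without shLuc replicate 1 (adjusted p = 0.136), shWDR5 replicate 2 (adjusted p = 0.0735) or shWDR5 replicate 3 (adjusted p = 0.127).

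Among the substrates and proteases downstream, 2 of 6 tested were higher and 2 lower. MMP9, a gelatinase whose precursor the plasmin system can help activate, was the gene of the list with the largest fold change. It had 2.81, 2.70 and 2.26 RPKM in shLuc and 38.2, 25.4 and 36.1 RPKM in shWDR5, a 12.8-fold rise (log2 fold change 3.68 ± 0.16, SE; adjusted p = 1.19e-07). MST1, encoding a hepatocyte growth factor-like protein, rose 1.96-fold to 1.70 ± 0.260 RPKM (adjusted p = 0.000252). MMP1, the interstitial collagenase, was 1.61-fold lower and PDGFD, a growth factor that urokinase can activate, was 1.58-fold lower (adjusted p = 6.71e-05 and 0.00842). MMP14 and PDGFC overlapped between groups and did not pass (adjusted p = 0.0804 and 0.0924), but both passed with the replicate number as a block, at log2 fold changes of 0.14 (adjusted p = 0.0111) and -0.17 (adjusted p = 0.00467). MMP14 also passed without shLuc replicate 1 (adjusted p = 0.0215) and with upper-quartile scaling (adjusted p = 0.0447), as did PDGFC without shWDR5 replicate 3 (adjusted p = 0.0279).

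Of 8 genes that share the three-finger fold of uPAR, 1 was higher and 4 lower. The abundant ones moved little: LYPD3 had 104 ± 5.99 and 111 ± 12.9 RPKM (adjusted p = 0.332), and CD59, the complement inhibitor, was 1.13-fold lower (adjusted p = 0.0149), a call lost without shLuc replicate 3 (adjusted p = 0.0519) and with upper-quartile scaling (adjusted p = 0.0642). LYPD1 (2.58-fold higher), LYPD5 (2.48-fold lower), LYPD6 (2.01-fold lower) and LYPD6B (2.07-fold lower) were all under 1 RPKM. LYPD6B had 3 to 19 reads per library, and its adjusted p of 0.0488 became 0.0561 with the replicate block and 0.0541 to 0.217 when any single library was left out. On the thrombin side of SERPINE2, F2R, the thrombin receptor, rose 1.67-fold to 1.90 ± 0.144 RPKM (adjusted p = 0.000404), and F3, the tissue factor that starts coagulation, was 1.62-fold lower at 136 ± 10.9 RPKM (adjusted p = 2.49e-05). THBD, the thrombin cofactor on endothelium, had 2 to 18 reads per library and an adjusted p of 0.0378. This was lost without any one of shLuc replicates 1, 2 and 3 and shWDR5 replicates 1 and 3 (adjusted p = 0.0536 to 0.114).

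**Figure D3:**
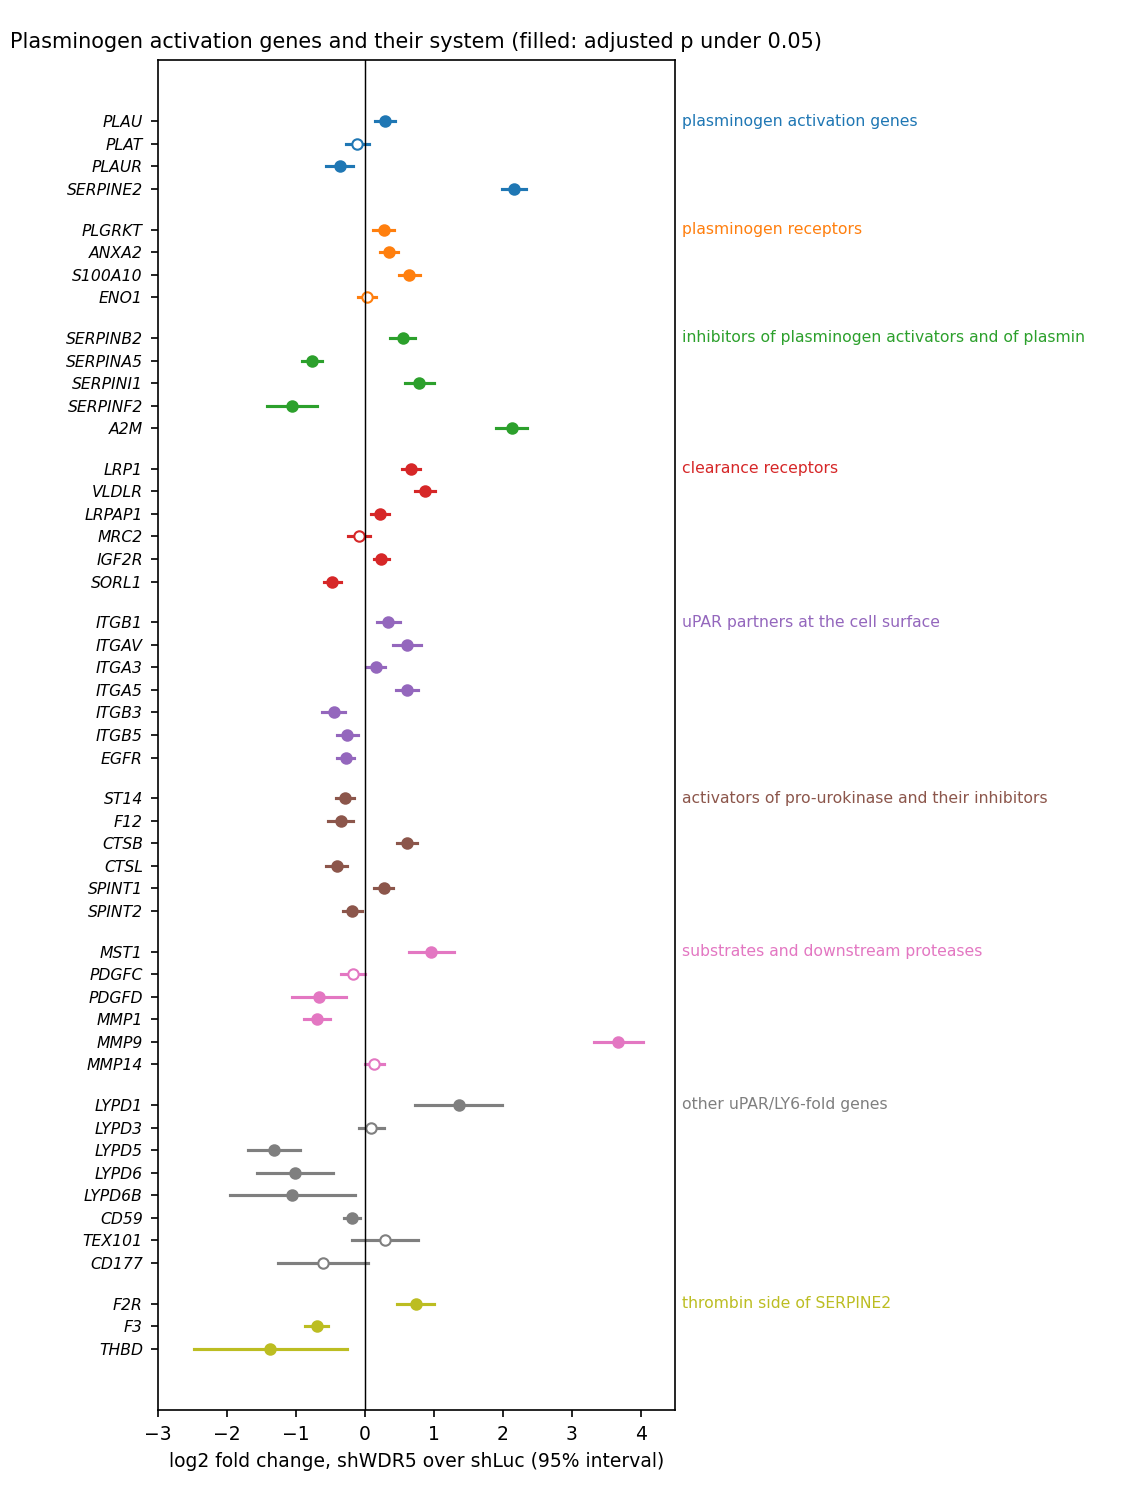
Log2 fold change of shWDR5 over shLuc with its 95% interval for the 4 plasminogen activation genes and the 45 tested genes of the system, grouped by role; filled circles passed an adjusted p of 0.05. SERPINE2 (2.17), A2M (2.13) and MMP9 (3.68) lie far to the right of the others, and most roles hold genes on both sides of 0.

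The genes whose levels followed each of the 4 genes most closely were found by Pearson correlation of log2(CPM + 1) over the 6 libraries, among 10760 genes with a mean of at least 5 CPM. Since the libraries fall in 2 groups, such a correlation mostly reflects the group difference and is given as a description. PLAU was followed closely by CDH3 and CEACAM19 (r = 0.999 for each), and 772 genes had r above 0.95. PLAUR was followed by SH3TC1 (r = 0.996), RUVBL2 (r = 0.996) and ADRBK1 (r = 0.995), with 252 genes above 0.95. SERPINE2 was followed by ALKBH5 (r = 0.9997), EVA1A (r = 0.9997) and MED26 (r = 0.999), with 1519 genes above 0.95. PLAT, which did not separate the groups, was followed by FIBP (r = 0.986), CSPG4 (r = 0.980) and TNFRSF25 (r = 0.975), with 16 genes above 0.95.

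**Figure D4:**
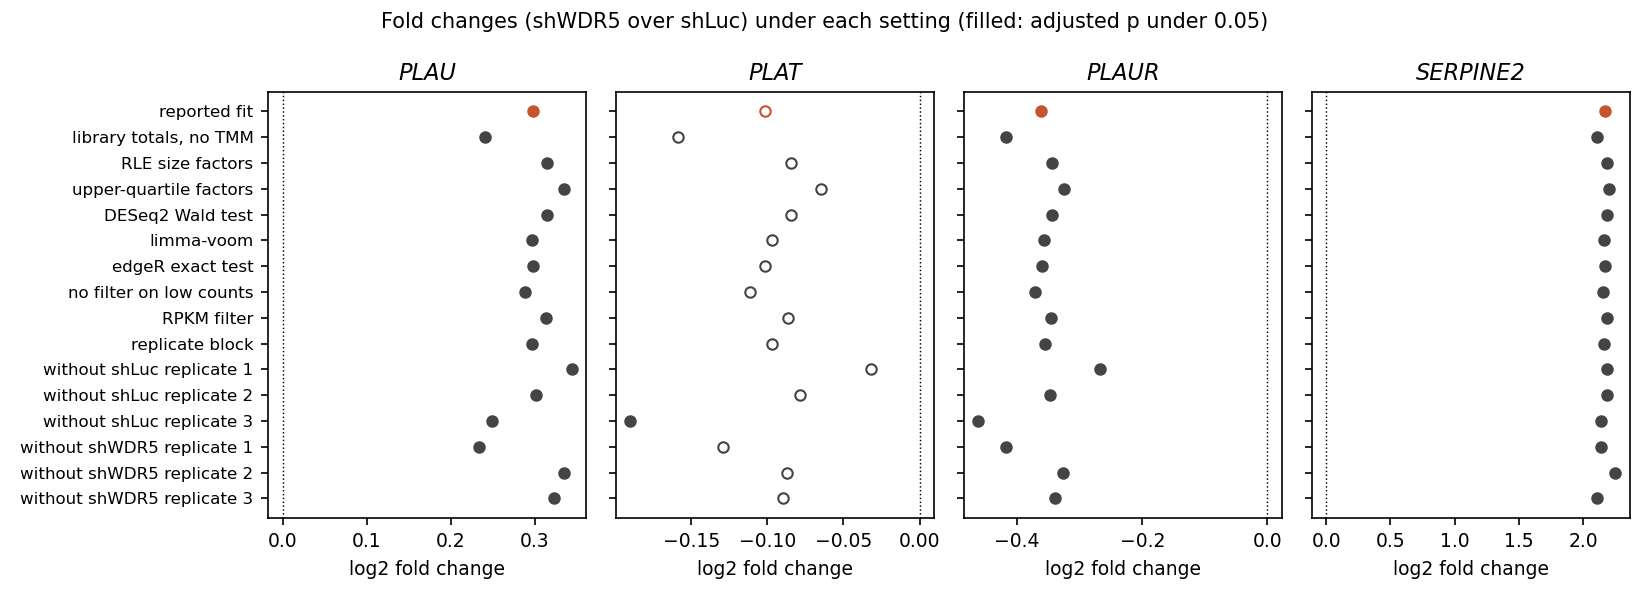
Log2 fold change of each of the 4 genes in the reported fit and under 15 other settings, with filled circles where the adjusted p was under 0.05 and a dotted line at 0. PLAU, PLAUR and SERPINE2 were on the same side of 0 and filled in every setting shown, while PLAT was filled only without shLuc replicate 3.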

How the data were processed

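Poly-A RNA of 6 MCF10DCIS.com libraries, 3 shLuc and 3 shWDR5, was sequenced by the authors. The deposited table holds raw read counts per gene for each library, with the exonic length of each gene. Per the submitters' processing notes, reads were aligned with TopHat2 2.1.0 to hg19 and counted with featureCounts; how reads shared between genes were treated is not given in the sources used here. A second deposited table holds the authors' own edgeR 3.2.2 comparison (log fold change, p-value and FDR) and was not used. Counts were filtered with filterByExpr (minimum count 10), scaled by TMM and tested with edgeR 4.0.16 (R 4.3.3), shWDR5 against shLuc, using the quasi-likelihood F test without covariates and with adjustment over all 16117 genes. CPM and RPKM were computed from the counts with the same factors. Intervals are at 95%. Alternatives used limma 3.58.1, DESeq2 1.42.0, other scalings and filters, and each library left out in turn.

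Replicate numbers in the sample titles were checked for pairing. Deviations from the group means correlated at 0.808, 0.13 and 0.351 between same-numbered libraries (replicates 1, 2 and 3). However, shLuc replicate 2 correlated at 0.63 with shWDR5 replicate 3, so pairing by number remained uncertain. The reported tests did not use pairs, and a fit with the replicate number as a block was run as an alternative. No pair of libraries agreed within sampling noise. The 4 genes, the list of 57 genes and the tests were chosen with earlier results of these data known. Named genes were the 4 genes, WDR5, and in each role up to 4 passing genes with the largest fold change and the 2 with the highest RPKM, and for each of the 4 genes the 3 with the highest correlation; genes without enough reads were named besides, and some items are not reported here. Promoter sequences are from RefSeq (GRCh38.p14), which is not the build of the counts, so no coordinate was carried between them.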

Additional observations from a re-analysis of the deposited data

How the results depend on the processing

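The log2 fold changes of SERPINE2, PLAU and PLAUR kept their direction and an adjusted p under 0.05 in all 15 alternatives run, with ranges of 2.11 to 2.25, 0.23 to 0.34 and -0.46 to -0.27. For PLAT the value ranged from -0.19 (without shLuc replicate 3, adjusted p = 0.0157) to -0.032 (without shLuc replicate 1), and no other alternative passed the test. With the replicate block the PLAT value was -0.10 (adjusted p = 0.113), and of the genes tested here by name the block changed the calls of MMP14, PDGFC and LYPD6B and of no other. Over all genes, the count passing was 9112, between 8120 and 8847 with a library left out, and 10412 with the replicate block. On the list of 57 genes it was 38, between 33 and 39 in all alternatives. The 33 came with a filter on RPKM (above 0.5 in at least 1 group), which left PDGFD, LYPD1, LYPD6, LYPD6B and THBD untested. The ENO1 difference, which did not pass, changed sign to -0.023 with library totals alone and ranged from -0.0034 (without shWDR5 replicate 1) to 0.095 (without shLuc replicate 1) with a library left out. Scaling by library totals alone also removed the ITGA3 call (adjusted p = 0.143) and added PDGFC (0.0374), and RLE and upper-quartile factors removed SPINT2 (0.0536 and 0.111) and LYPD6B (0.0521 and 0.0519). Upper-quartile factors also removed CD59 (0.0642) and added MMP14 (0.0447). SPINT2 and LYPD6B were also lost with DESeq2, which changes both the size factors and the test (0.0632 and 0.142), and LYPD6B without the filter on low counts (0.0601). The cause of these changes was not tested. With 3 libraries per group the exact tests of ratios could not go below p = 0.1, or below 0.25 with pairs. Depth did not limit the 4 genes, which had at least 5047 counts in every library.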
